A study of Mus musculus with 12 samples.

Results

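The genes described are 10 that act in osteoblast differentiation and in the mineralization of bone matrix, taken by name from the 29862 genes of the deposited table: the transcription factors Runx2, Sp7, Dlx3 and Dlx5, the matrix protein genes Ibsp, Spp1 and Bglap, and the enzyme genes Alpl, Smpd3 and Enpp1. No measured value entered this rule, although the genes were picked with earlier results of these data known. RNA came from mandibular fibrochondrocytes of C57BL/6J pups aged 10 to 14 days, which a retrovirus carrying hTERT (telomerase reverse transcriptase) and GFP had made immortal. The control line (HITM) is 1 clone of these cells, wild type for NG2/CSPG4. The NG2|EDmut line (HITMNG2Col6) is 1 further clone derived from it, in which CRISPR/Cas9 truncated the NG2/CSPG4 ectodomain in the region that binds type VI collagen. Both lines carry hTERT and GFP. Each was grown in serum (AMEM with heat-inactivated FBS) or under serum starvation (Opti-MEM without added serum), with L-Glut, Pen and Plasmocin in both media, and each of the 4 groups has 3 libraries. How long the starvation lasted is not stated in the sources read for this work. With 1 clone per genotype, the truncation and the clone cannot be told apart, and p-values measure the spread between libraries of these clones.

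Osteoblasts arise from mesenchymal progenitors. Runx2 commits the progenitor, Sp7 (osterix) acts downstream of it, and homeodomain factors of the Dlx family act on the same promoters. The maturing cell secretes a collagen matrix with acidic phosphoproteins such as bone sialoprotein and osteopontin, and mineral forms where phosphate is high and pyrophosphate, an inhibitor of crystal growth, is low. Enpp1 makes extracellular pyrophosphate and the phosphatase encoded by Alpl breaks it down, so the 2 enzymes act on mineral in opposite ways. In the mandibular condyle, the fibrocartilage lies against bone, and its outer layers are continuous with the periosteum.

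Levels are CPM, that is estimated counts scaled by the effective (TMM) library size, and they are compared between libraries. Between genes, the authors' FPKM, which is per length, is used. Changes are log2 fold changes from edgeR's quasi-likelihood test, called at a Benjamini-Hochberg adjusted p under 0.05 over the 18703 genes that passed the filter on low counts. All 10 genes passed that filter. In bulk RNA, fewer cells expressing a gene and less RNA per cell cannot be told apart.

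The libraries held between 60277881 and 77172479 estimated counts, and ribosomal RNA genes took 0.49% to 4.82% of them. Control serum replicate 1 stood apart: its median absolute log2 difference from replicates 2 and 3 was 0.45 and 0.5, while that between any other replicates of a group was 0.128 to 0.355. Ibsp, Dlx3, Bglap and Spp1 were over 2-fold above the mean of the other control serum libraries in it. Results are therefore given with and without this library where it moves them. Cspg4, the edited gene, was at 132 ± 46.8 CPM (SD, n = 3) in control and 207 ± 51.3 CPM (SD, n = 3) in NG2|EDmut cells in serum, a difference that did not pass the test (log2 fold change 0.65, adjusted p = 0.111 by edgeR). Under starvation it was at 84.1 ± 26.2 CPM (SD, n = 3) in control and higher in NG2|EDmut cells, at 229 ± 24.7 CPM (SD, n = 3; log2 fold change 1.44, adjusted p = 0.00214 by edgeR). A total over the gene does not check the truncation. The 7 cartilage markers, all in the table, summed to 78.6 to 91.4 CPM in control cells in serum and 66.6 to 72.1 CPM under starvation. In NG2|EDmut cells the sums were 32.9 to 48.2 and 46.7 to 54.3 CPM, lower in the line in which most of the 10 genes were higher. Most of each sum was Sox9 and Col2a1. By group mean, Sox9, Acan, Comp and Matn3 were lower in NG2|EDmut cells in both conditions. Col2a1 was lower in serum (15.3 against 39.2 CPM) but not under starvation (13.2 against 11.9 CPM). Col10a1 was higher in both (1.41 against 0.972 and 0.862 against 0.459 CPM), and Cnmd was near 0. The part of these markers in the differences of the 10 genes was not tested. The defining marker Acan was at no more than 1.34 CPM in any library. The summed markers of tendon and fibrous mesenchyme were at 24500 to 31700 CPM. Most of this was Col1a1, which is also listed among the bone matrix proteins below and was higher in NG2|EDmut cells by group mean. Col3a1 (918 against 4160 CPM in serum), Prrx1 and Pdgfrb were lower in NG2|EDmut cells in both conditions by group mean. Scx was higher in serum (81.5 against 49.9 CPM) but not under starvation (75.4 against 77.3 CPM), and Tnmd was near 0. Summed markers of endothelium, skeletal muscle, epithelium and adipocytes reached at most 1.05, 4.89, 6.66 and 14.4 CPM in a library.

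In both conditions, 7 of the 10 genes were higher in NG2|EDmut than in control cells, namely Runx2, Sp7, Dlx3, Dlx5, Ibsp, Alpl and Smpd3. Enpp1 and Spp1 were lower in both. Bglap, encoding osteocalcin, was higher in serum, whereas under starvation its difference did not pass. Of all tested genes, 31.5% were called between the lines in serum (15.4% higher and 16.2% lower). Under starvation 38% were called (17.9% higher and 20.1% lower). In control cells, edgeR called Sp7, Dlx3, Ibsp, Alpl and Smpd3 lower and Enpp1 higher on starvation (20.2% of all tested genes were called). In NG2|EDmut cells it called none of the 10 in the fit over all 12 libraries (2.06% of all tested genes, or 385, were called). A fit on the NG2|EDmut libraries alone called 5 of the 10 lower, and 2760 genes in all. On the control libraries alone, a fit called 4 of the 10 (1 higher and 3 lower), and 795 genes in all.

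**Figure D1:**
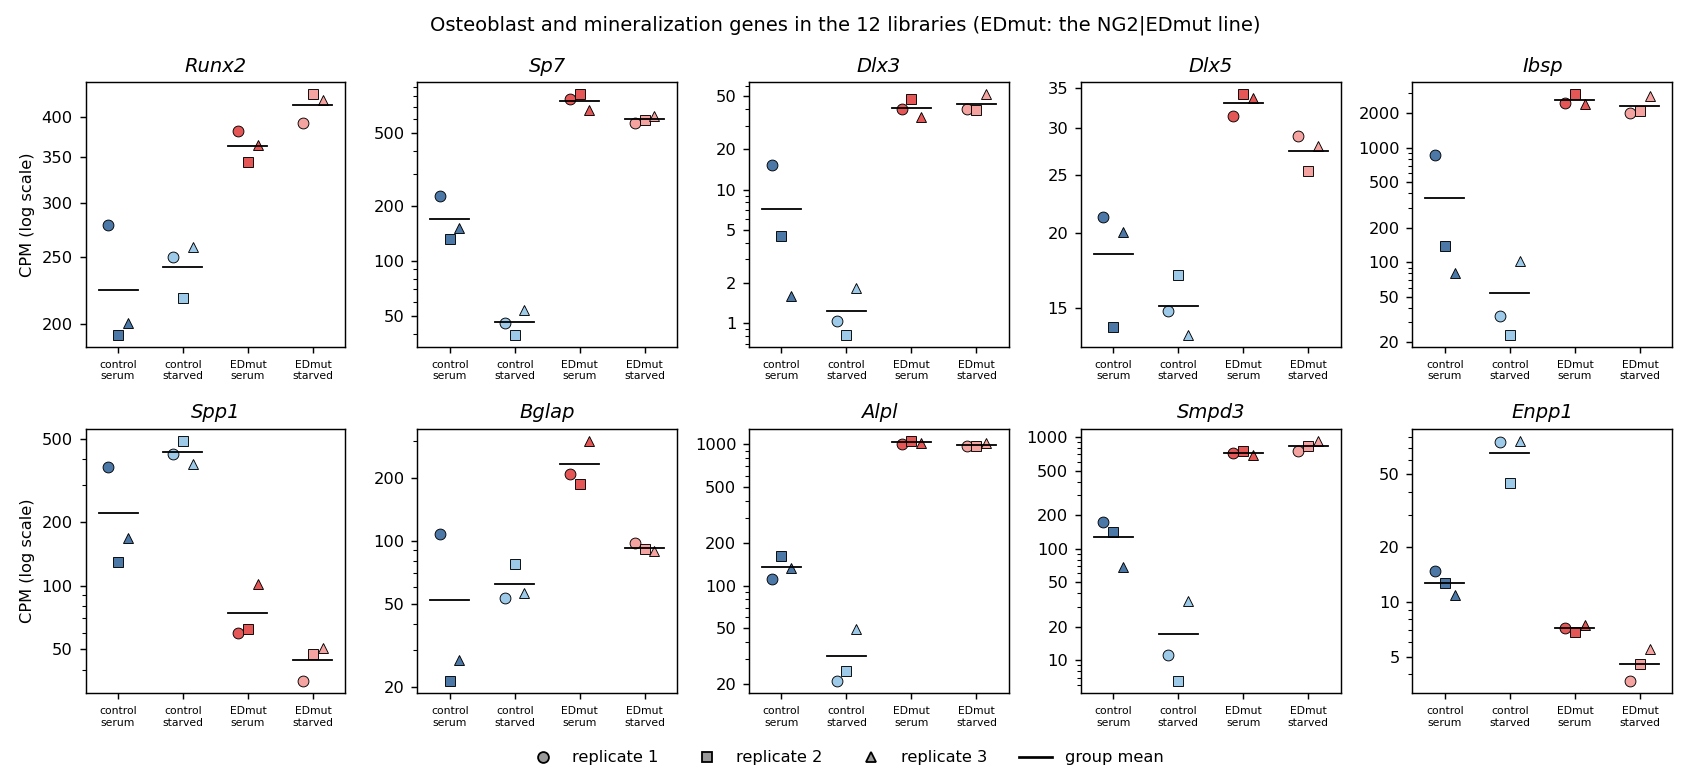
CPM (log axis) of each gene in the 12 libraries, by line and condition. Symbols are replicates, lines are group means, and EDmut is the NG2|EDmut line. Alpl lies between 968 and 1060 CPM in the 6 NG2|EDmut libraries and between 21 and 163 CPM in the 6 control libraries, whereas Enpp1 has the opposite order. Control serum replicate 1 (first circle) is the highest control serum library for 9 of the 10 genes.

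The promoter sequences of 5 of the genes are shown because they pair genes that moved in opposite directions: Ibsp with its chromosomal neighbour Spp1, and Alpl with Enpp1, with Bglap beside them as a known RUNX2 target. They are the bases before the start of the gene in RefSeq on GRCm38.p6, from 5′ to 3′ on the gene's strand. Capitals mark TGTGGT (the core that RUNX factors bind), GGGCGG (a GC box, bound by SP factors) and TAATT (a homeodomain core), on either strand. Ibsp is cut at the earlier start of the deposited table, which leaves 134 bases. The coordinates are chr5:104299037-104299170 (plus strand) for Ibsp, chr5:104434861-104435110 (plus) for Spp1, chr4:137796385-137796634 (minus) for Alpl, chr10:24712160-24712409 (minus) for Enpp1 and chr3:88384467-88384716 (minus) for Bglap.
Ibsp: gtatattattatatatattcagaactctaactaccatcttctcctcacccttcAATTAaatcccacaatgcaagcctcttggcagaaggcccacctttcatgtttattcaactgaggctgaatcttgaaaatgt
Spp1: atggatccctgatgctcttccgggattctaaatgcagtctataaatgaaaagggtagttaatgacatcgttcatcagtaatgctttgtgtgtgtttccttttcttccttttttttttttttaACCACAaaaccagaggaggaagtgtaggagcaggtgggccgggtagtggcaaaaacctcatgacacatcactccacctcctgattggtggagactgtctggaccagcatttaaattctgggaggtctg
Alpl: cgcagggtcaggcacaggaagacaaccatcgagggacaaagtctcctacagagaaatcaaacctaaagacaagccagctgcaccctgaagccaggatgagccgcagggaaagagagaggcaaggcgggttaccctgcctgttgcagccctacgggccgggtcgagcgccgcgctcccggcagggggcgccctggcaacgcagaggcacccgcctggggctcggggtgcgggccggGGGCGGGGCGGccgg
Enpp1: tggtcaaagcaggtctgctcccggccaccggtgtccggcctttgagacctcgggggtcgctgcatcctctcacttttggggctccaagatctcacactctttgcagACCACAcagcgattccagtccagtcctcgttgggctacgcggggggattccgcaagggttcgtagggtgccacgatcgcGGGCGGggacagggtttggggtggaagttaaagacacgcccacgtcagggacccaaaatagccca
Bglap: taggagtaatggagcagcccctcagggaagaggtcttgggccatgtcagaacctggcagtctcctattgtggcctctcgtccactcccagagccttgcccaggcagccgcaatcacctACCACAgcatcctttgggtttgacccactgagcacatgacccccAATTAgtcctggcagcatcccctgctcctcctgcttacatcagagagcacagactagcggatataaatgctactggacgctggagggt

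Within 250 bases of the RefSeq start, the RUNX core was found in Spp1 (first base at -128 from the start), Enpp1 (-144) and Bglap (-132), and also in Runx2 itself (-80). It occurs in 14% of the 32851 RefSeq promoter windows of that length. Alpl holds 2 overlapping GC boxes (-15 and -10) and Enpp1 holds 1 (-65), against 32.7% of windows with at least 1. The homeodomain core was found in Ibsp (-197) and Bglap (-88), against 25% of windows. The RUNX core thus stood in windows of genes that were higher (Bglap, Runx2) and lower (Spp1, Enpp1) in NG2|EDmut cells in serum. For Runx2, the RefSeq start lies 170 bases inside the gene as deposited, so its match lies within that gene and not before it. These matches describe letters only. Sp7, Dlx3, Dlx5 and Smpd3 were not matched to a promoter entry.

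The lines were first compared in serum. All 10 genes were called, 8 higher and 2 lower, where 31.5% of all tested genes were called (15.4% higher and 16.2% lower). Their median log2 fold change was 2.15, and that of all tested genes was -0.03. For none of the 10 did the groups overlap, as held for 41.9% of all tested genes. Without control serum replicate 1, the same 10 genes were called in the same directions. Calls over all tested genes rose from 5894 to 7657 in that fit.

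Under serum starvation, 9 of the 10 genes were called, 7 higher and 2 lower, where 38% of all tested genes were called (17.9% higher and 20.1% lower). The median log2 fold change of the 10 was 2.27, against -0.02 over all tested genes. Again no gene's groups overlapped, which was so for 56.8% of all tested genes.

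**Figure D2:**
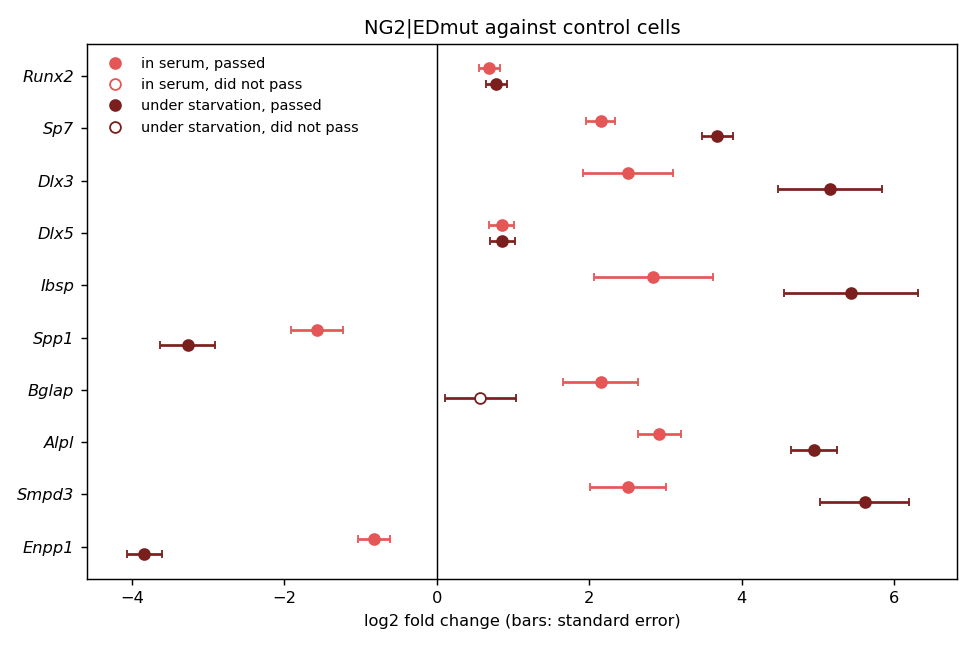
Log2 fold change of NG2|EDmut against control cells for each gene, in serum and under starvation. Bars are standard errors from edgeR, and open circles did not pass the test. Alpl, Smpd3, Ibsp and Dlx3 lie at 2.51 to 2.92 in serum and at 4.95 to 5.61 under starvation, and Enpp1 goes from -0.83 to -3.84.

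Runx2 (ENSMUSG00000039153, chromosome 17, 44495987 to 44814797 on GRCm38), the factor that commits cells to the osteoblast lineage, differed least between the lines in serum. Its levels in control cells were 279, 193 and 201 CPM in serum and 250, 218 and 259 CPM under starvation. NG2|EDmut cells had 381, 344 and 364 CPM in serum and 392, 431 and 423 CPM under starvation. Every NG2|EDmut library was thus above every control library. The log2 fold change between the lines was 0.69 in serum (standard error 0.14, adjusted p = 0.00289 by edgeR) and 0.78 under starvation (standard error 0.14, adjusted p = 0.00094 by edgeR). Runx2 did not pass in either starvation response, at 0.11 in control and 0.19 in NG2|EDmut cells. The control response was 0.3 without control serum replicate 1 (adjusted p = 0.0373 by edgeR). Runx2 overlaps 4 genes on the other strand, among them Supt3, and the sources do not state whether counting used strand.

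Sp7 (ENSMUSG00000060284, chromosome 15, 102356606 to 102366968), the osteoblast factor downstream of Runx2, differed more. In control cells it was at 226, 132 and 151 CPM in serum and at 45.7, 39.5 and 54.3 CPM under starvation. The NG2|EDmut line had 769, 816 and 672 CPM in serum and 572, 592 and 624 CPM under starvation. The 4 groups did not overlap, with NG2|EDmut cells in serum highest and starved control cells lowest. Sp7 was 4.43-fold higher in NG2|EDmut cells in serum (log2 fold change 2.15, standard error 0.19, adjusted p = 8.93e-06 by edgeR) and 12.8-fold higher under starvation (3.68, standard error 0.2, adjusted p = 1.85e-07). Starvation lowered it 3.65-fold in control cells (log2 fold change -1.87, adjusted p = 0.000193), and the step in NG2|EDmut cells, -0.34, did not pass (adjusted p = 0.511).

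Dlx3 (ENSMUSG00000001510, chromosome 11, 95120119 to 95125296) and Dlx5 (ENSMUSG00000029755, chromosome 6, 6877805 to 6882085) encode homeodomain factors that act in osteoblast differentiation. Dlx3 was at 15.4, 4.52 and 1.58 CPM in control cells in serum and at 1.04, 0.812 and 1.82 CPM under starvation. The NG2|EDmut libraries had 39.9, 47.4 and 35.3 CPM in serum and 40.5, 39.5 and 51.8 CPM under starvation. The lines did not overlap, while the control groups did overlap each other. The difference between the lines was 5.69-fold in serum (log2 fold change 2.51, standard error 0.59, adjusted p = 0.0073 by edgeR) and 35.7-fold under starvation (5.16, standard error 0.68, adjusted p = 0.000102). The fall of Dlx3 on starvation in control cells (log2 fold change -2.54, adjusted p = 0.0143) became -1.31 without control serum replicate 1 (adjusted p = 0.0241). It was not called without control starved replicate 2 (-2.34, adjusted p = 0.0552). Nor was it called by edgeR on the control libraries alone (-2.57, adjusted p = 0.0906). On log2(FPKM + 1), limma did not call it either (-1.08, adjusted p = 0.0567). The lines differed 13.4-fold in serum without control serum replicate 1 (log2 fold change 3.74).

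Dlx5 changed less than its family member. It was at 21.3, 13.9 and 20.1 CPM in control cells in serum and at 14.8, 17 and 13.5 CPM under starvation. NG2|EDmut cells had 31.5, 34.2 and 33.7 CPM in serum and 29.1, 25.4 and 28 CPM under starvation, above all control libraries. Its log2 fold change between the lines was 0.85 in serum (standard error 0.16, adjusted p = 0.00167 by edgeR) and 0.86 under starvation (standard error 0.16, adjusted p = 0.00101). Neither line's starvation response passed, at -0.29 in control and -0.27 in NG2|EDmut cells. The control response was called without control serum replicate 2 (-0.45, adjusted p = 0.0462).

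Ibsp (ENSMUSG00000029306, chromosome 5, 104299171 to 104311469) encodes bone sialoprotein, an acidic matrix protein that promotes mineral formation. It was at 869, 138 and 81.1 CPM in control cells in serum, so replicate 1 was far above the other 2 libraries. Under starvation the control libraries had 34.1, 23.2 and 103 CPM. In NG2|EDmut cells it was at 2460, 2930 and 2410 CPM in serum and at 2000, 2090 and 2820 CPM under starvation, above all control libraries. By FPKM, Ibsp ranked 21 to 32 among all 29862 genes in the NG2|EDmut libraries and 81 to 4014 in the control libraries. The difference between the lines was 7.17-fold in serum (log2 fold change 2.84, standard error 0.78, adjusted p = 0.0164 by edgeR) and 43-fold under starvation (5.43, standard error 0.88, adjusted p = 0.000457). Single libraries moved these values. In serum it was 23.8-fold without control serum replicate 1 (log2 fold change 4.57, adjusted p = 7.75e-05) and was not called without control serum replicate 2 (2.45, adjusted p = 0.0566). Under starvation it was 82.7-fold without control starved replicate 3 (6.37, adjusted p = 0.00066).

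Spp1 (ENSMUSG00000029304, chromosome 5, 104435118 to 104441050) encodes osteopontin, an acidic phosphoprotein that osteoblasts, macrophages and other cells secrete and that inhibits crystal growth. Its levels were 366, 130 and 168 CPM in control cells in serum and 421, 488 and 380 CPM under starvation. NG2|EDmut cells had 59.4, 62.2 and 102 CPM in serum and 35.2, 47.7 and 50.7 CPM under starvation. No group overlapped another, and starved control cells were highest. Spp1 was 2.97-fold lower in NG2|EDmut cells in serum (log2 fold change -1.57, standard error 0.34, adjusted p = 0.00445 by edgeR) and 9.65-fold lower under starvation (-3.27, standard error 0.36, adjusted p = 2.68e-05). The value in serum was -1 without control serum replicate 1 (adjusted p = 0.00455). The overlapping gene Gm42793 holds 11.6% of the 50-base windows of Spp1's transcripts.

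Macrophage markers were, like Spp1, lower in NG2|EDmut than in control libraries. Their summed level was 45.2 to 84.6 CPM in control cells in serum and 83.9 to 119 CPM under starvation, against 10.6 to 16.1 and 15.2 to 23.6 CPM in NG2|EDmut cells, where Spp1 had its lower values under starvation. All 6 listed markers were in the table and most of the sum was Lyz2, while the defining markers Ptprc and Adgre1 were at or near 0, at no more than 0.143 and 0.371 CPM in any library. Summed osteoclast markers, of which 3 of 6 were in the table, were at 165 to 287 CPM in control and 88.6 to 162 CPM in NG2|EDmut libraries. Almost all of this was Ctsk, with Acp5 at no more than 0.989 CPM.

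Ibsp and Spp1 lie on the same strand of chromosome 5, 124 kb apart, in the cluster of genes for secreted phosphoproteins of bone and teeth, with Mepe between them and Dmp1 before Ibsp. Mepe was not tested, at a mean of no more than 0.0449 CPM in any group. Dmp1, named for its position after its values were seen, did not pass in serum and was lower in NG2|EDmut cells under starvation (log2 fold change -4.36, adjusted p = 0.00527 by edgeR). Its serum value (-0.15, standard error 0.87) rests on control libraries spread from 0.78 to 20.1 CPM (7.35 ± 11.1 CPM, SD, n = 3). The NG2|EDmut serum libraries had 5.87 to 8.03 CPM of Dmp1. The neighbours Ibsp and Spp1 were thus called in opposite directions in both conditions. Their FPKM ratio, Ibsp to Spp1, was 1.89, 0.847 and 0.383 in the control serum libraries and 0.0645, 0.0379 and 0.216 in the starved ones. NG2|EDmut cells had ratios of 33.1, 37.5 and 18.8 in serum and 45.3, 34.8 and 44.1 under starvation, so Ibsp was the higher of the pair in all 6 NG2|EDmut libraries and in 1 of 6 control libraries.

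Bglap (ENSMUSG00000074483, chromosome 3, 88383501 to 88384464) encodes osteocalcin, a protein of late osteoblasts. It was at 108, 21.3 and 26.9 CPM in control cells in serum and at 53.3, 77.6 and 56.1 CPM under starvation. The NG2|EDmut line was at 209, 187 and 300 CPM in serum and at 97.4, 91 and 89.2 CPM under starvation. NG2|EDmut cells in serum were above the 3 other groups, and the starved lines were close, with 89.2 CPM as the lowest NG2|EDmut and 77.6 CPM as the highest control value. Bglap was 4.44-fold higher in NG2|EDmut cells in serum (log2 fold change 2.15, standard error 0.49, adjusted p = 0.00603 by edgeR), and the difference under starvation, 0.57, did not pass (standard error 0.47, adjusted p = 0.377). Without control serum replicate 1, the difference was 9.65-fold in serum (3.27) and was called under starvation (0.57, adjusted p = 0.0243). Bglap is uncertain as a single gene, since 56.6% of its 50-base windows also occur in transcripts of the copies Bglap2 or Bglap3.

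Alpl (ENSMUSG00000028766, chromosome 4, 137741733 to 137796384) encodes the tissue-nonspecific alkaline phosphatase. It was at 111, 163 and 134 CPM in control cells in serum and at 21, 24.9 and 49.7 CPM under starvation. The NG2|EDmut libraries were at 1010, 1060 and 1030 CPM in serum and at 968, 968 and 1020 CPM under starvation. The NG2|EDmut groups overlapped each other and lay far above both control groups, which did not overlap. The difference between the lines was 7.59-fold in serum (log2 fold change 2.92, standard error 0.28, adjusted p = 1.34e-05 by edgeR) and 30.9-fold under starvation (4.95, standard error 0.3, adjusted p = 3.42e-07). Control serum replicate 1 was the lowest of its group for Alpl, and without it the log2 fold change in serum was 2.8.

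Smpd3 (ENSMUSG00000031906, chromosome 8, 106252548 to 106337988) encodes a neutral sphingomyelinase that mouse bone and cartilage need to mineralize. It was at 172, 140 and 68.9 CPM in control cells in serum and at 11.1, 6.48 and 33.9 CPM under starvation. Levels in NG2|EDmut cells were 720, 749 and 696 CPM in serum and 759, 833 and 927 CPM under starvation. No group overlapped another, and the starved groups were the extremes at both ends. Smpd3 was 5.68-fold higher in NG2|EDmut cells in serum (log2 fold change 2.51, standard error 0.5, adjusted p = 0.0026 by edgeR) and 48.9-fold higher under starvation (5.61, standard error 0.58, adjusted p = 1.39e-05). Without control starved replicate 3, the value under starvation was 98.4-fold (6.62). Smpd3 overlaps Prmt7 on the other strand.

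Enpp1 (ENSMUSG00000037370, chromosome 10, 24637914 to 24712159) encodes the ectoenzyme that makes pyrophosphate from ATP. Its levels were 14.7, 12.6 and 10.9 CPM in control cells in serum and 75.2, 45 and 76.3 CPM under starvation. NG2|EDmut cells had 7.14, 6.84 and 7.46 CPM in serum and 3.66, 4.53 and 5.52 CPM under starvation. No group overlapped another, and starved control cells were highest. Enpp1 was 1.78-fold lower in NG2|EDmut cells in serum (log2 fold change -0.83, standard error 0.21, adjusted p = 0.0103 by edgeR) and 14.3-fold lower under starvation (-3.84, standard error 0.23, adjusted p = 3.03e-07). On log2(FPKM + 1), limma did not call the difference in serum (-0.38, adjusted p = 0.0863).

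Alpl and Enpp1, which remove and make pyrophosphate, moved apart. The FPKM ratio of Alpl to Enpp1 was 19.3, 32.9 and 31.3 in control cells in serum and 0.709, 1.41 and 1.65 under starvation. The NG2|EDmut libraries had ratios of 362, 393 and 351 in serum and 680, 548 and 471 under starvation. The ratio thus fell in control cells to near 1 and was 351 or more in every NG2|EDmut library. These are transcript ratios and no measure of enzyme activity or of pyrophosphate.

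Starvation was then compared with serum within each line, with the same libraries as in the comparisons of the lines, so these results are not independent of those above. In control cells 6 of the 10 genes were called, 1 higher and 5 lower, where 20.2% of all tested genes were called (9.45% higher and 10.8% lower), and the median log2 fold change of the 10 was -1.08 against 0.04 over all tested genes. Enpp1 rose 5.14-fold (log2 fold change 2.36, standard error 0.22, adjusted p = 9.81e-05 by edgeR). Smpd3 fell 7.4-fold (-2.89, standard error 0.51, adjusted p = 0.00283), Alpl 4.27-fold (-2.09, standard error 0.27, adjusted p = 0.000564) and Sp7 3.65-fold. The control groups did not overlap for these 4 genes and for Spp1, which makes 5 of 10, where 28% of all tested genes did not overlap. Ibsp (-2.76, standard error 0.78, adjusted p = 0.027) and Dlx3 were called although their groups overlapped, and without control serum replicate 1 Ibsp was at -1.03 and not called (adjusted p = 0.118). Without control starved replicate 3, the values were -3.69 for Ibsp and -3.89 for Smpd3. Ibsp was also lost without control starved replicates 1 or 2. Fitted by edgeR on the control libraries alone, 4 of the 10 genes were called, 1 higher and 3 lower, and 795 genes in all. Ibsp (-2.78, adjusted p = 0.123) and Dlx3 were lost in that fit.

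Spp1, Bglap, Dlx5 and Runx2 did not pass in control cells. Spp1 was at 0.96 (adjusted p = 0.0647 by edgeR), although DESeq2 (0.95, adjusted p = 0.0197) and limma on log2(FPKM + 1) (1.05, adjusted p = 0.0347) called it higher, and Bglap at 0.25 (adjusted p = 0.762). Both were called higher without control serum replicate 1, at 1.53 (adjusted p = 0.000505) and 1.37 (adjusted p = 0.00045). In all, 8 genes were then called, 4 higher and 4 lower. Calls over all tested genes rose from 3779 to 6390 in that fit.

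In NG2|EDmut cells, 0 of the 10 genes were called by edgeR, where 2.06% of all tested genes were (0.957% higher and 1.1% lower). Of the 10, 3 genes had an unadjusted p under 0.05 (Spp1, Bglap and Enpp1), and DESeq2 and limma called 0. The median log2 fold change was -0.22, against -0.01 over all tested genes. For 7 of the 10 the groups did not overlap, where 33.2% of all tested genes did not. Bglap had the largest difference, from 232 ± 59.7 CPM (SD, n = 3) in serum to 92.5 ± 4.33 CPM (SD, n = 3) under starvation, a log2 fold change of -1.33 (adjusted p = 0.23 by edgeR). The others ranged from -0.74 for Spp1 to 0.22 for Smpd3. The test shares its spread with the control groups. Fitted by edgeR on the NG2|EDmut libraries alone, Bglap, Spp1, Enpp1, Sp7 and Dlx5 were called lower, with adjusted p from 0.000599 to 0.0492. That fit called 2760 genes in all, against 385 in the fit over all 12 libraries. Without control serum replicate 1, Bglap was called (adjusted p = 0.00115 by edgeR) among 1453 genes in all.

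**Figure D3:**
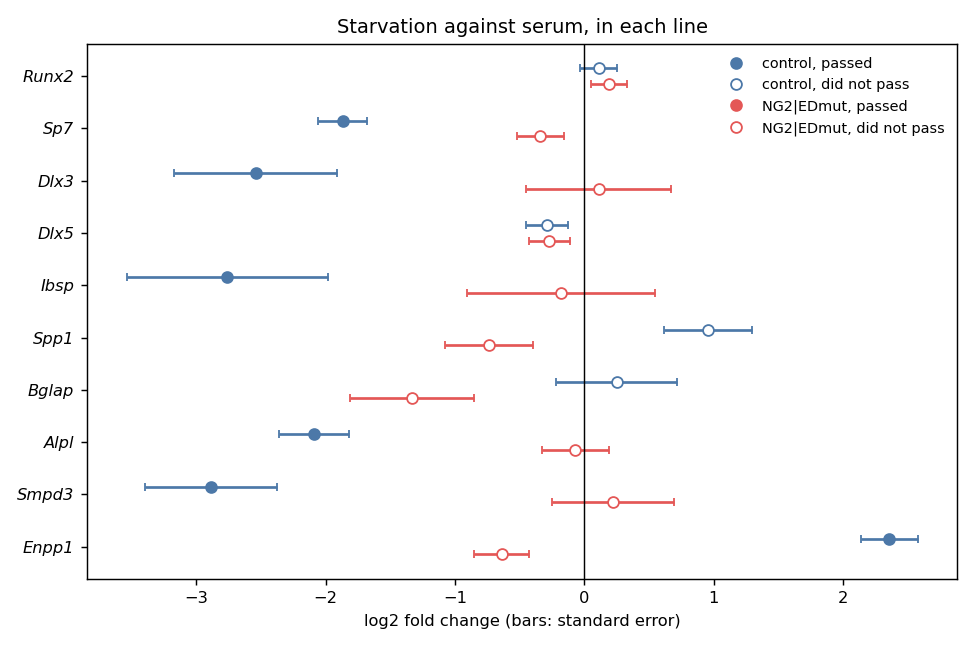
Log2 fold change of starvation against serum for each gene in control cells and in NG2|EDmut cells. Bars are standard errors from edgeR, and open circles did not pass the test. In control cells 5 genes lie between -1.87 and -2.89 and Enpp1 at 2.36, while in NG2|EDmut cells the values lie between -1.33 and 0.22 and all are open.

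Whether the starvation response itself differed between the lines was tested by the interaction of line and starvation, which is positive where the response of NG2|EDmut cells was more upward than that of control cells. Of the 10 genes 4 passed, 3 higher and 1 lower, where 4.39% of all tested genes passed (2.03% higher and 2.36% lower). The median was 0.81, against -0.03 over all tested genes. Enpp1 had an interaction of -3.01 (standard error 0.3, adjusted p = 0.000399 by edgeR), Sp7 of 1.53 (standard error 0.26, adjusted p = 0.00722), Alpl of 2.03 (standard error 0.37, adjusted p = 0.01) and Smpd3 of 3.1 (standard error 0.68, adjusted p = 0.0262). Thus edgeR called different starvation responses in the lines for Sp7, Alpl, Smpd3 and Enpp1, although Smpd3 often lost the call when 1 library was left out.

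Smpd3 was called in 4 of 12 fits that left out 1 library, with values from 2.73 to 4.1 and adjusted p from 0.00138 to 0.0718. The highest of these values is without control starved replicate 3. Sp7, Alpl and Enpp1 were called in all 12. For Ibsp (2.59, adjusted p = 0.206 by edgeR), Dlx3 (2.65, adjusted p = 0.103), Spp1 (-1.7, adjusted p = 0.0681) and Bglap (-1.58, adjusted p = 0.226), edgeR did not call the difference between responses. DESeq2, which gave no adjusted p for Ibsp, called it for Dlx3 (2.66, adjusted p = 0.0426) and Spp1 (-1.68, adjusted p = 0.00555). It called 6 of the 10 genes in all, and 1635 genes over the whole series, against 821 by edgeR. Without control serum replicate 1, Spp1 (-2.27, adjusted p = 0.00044 by edgeR) and Bglap (-2.7, adjusted p = 5.65e-05) passed. In that fit 6 of the 10 genes were called, while calls over all tested genes rose from 821 to 3901. Dlx3 passed without control serum replicate 3 (3.12, adjusted p = 0.0147 by edgeR). Without control serum replicate 1, the values fell to 1.41 for Dlx3 (adjusted p = 0.0692) and 0.86 for Ibsp (adjusted p = 0.41). Neither was called there. Runx2 (0.08) and Dlx5 (0.02) were near 0 with standard errors of 0.2 and 0.22.

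Other genes of the same processes were counted from 4 lists. Between the lines, 31.5% of all tested genes were called in serum (15.4% higher and 16.2% lower). Under starvation 38% were called (17.9% higher and 20.1% lower). Among 16 further osteoblast transcription factors and cofactors, 7 were higher and 6 lower in NG2|EDmut cells in serum (median log2 fold change 0.12), and 8 were higher and 7 lower under starvation (median -0.13). Dlx4 (2.62 in serum and 2.58 under starvation) and Zbtb16 (2.44 and 2.78), a zinc finger factor, were higher. Both were at low levels, with group means of 0.278 to 1.71 CPM for Dlx4 and 0.491 to 3.39 CPM for Zbtb16. The homeodomain factors Msx1 (-2.38 and -1.88) and Msx2 (-2.73 and -2.85), Dlx1 (-0.67 and -1.42) and Zfp521 (-0.83 and -1.3), which restrains RUNX2 in mouse cells, were lower. This list thus had calls in both directions in like numbers.

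Of the genes listed as bone matrix proteins, 10 of 12 were tested. In serum 5 were higher and 1 lower (median 0.38), and under starvation 2 were higher and 4 lower (median -0.06). The 5 include the genes of a membrane protein (Ifitm5) and a kinase (Fam20c). Ifitm5, a membrane protein of osteoblasts, was higher in both (2.76 and 5.1), as was Sparc, encoding osteonectin (1.45 and 0.94). Bgn, the proteoglycan biglycan, was lower in both (-1.56 and -1.97). Bglap2, which shares most of its sequence with Bglap, was higher in serum (2.11), and its value under starvation, 0.02, did not pass. Fam20c, the kinase of secreted phosphoproteins, was higher in serum (0.49) and lower under starvation (-0.67). The collagen genes Col1a1 (0.26 and 0.2) and Col1a2 (0.05 and -0.13) did not pass in either condition.

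Of the regulators of phosphate, pyrophosphate and mineral, 12 of 14 were tested, with 5 higher and 4 lower in serum (median -0.16) and 3 higher and 5 lower under starvation (median -0.82). Phospho1, a phosphatase of matrix vesicles, was higher by 2.75 and 4.88, and Nt5e, which frees phosphate from AMP, by 1.76 and 2.94. Ank, encoding the transporter that exports ATP and pyrophosphate, was higher in serum (0.39) and lower under starvation (-1.83). Its mean was 157 CPM in control cells in serum and 414 CPM under starvation, against 207 and 116 CPM in NG2|EDmut cells. Mgp, an inhibitor of calcification, was lower in serum (-2.17) and did not pass under starvation (-0.87, adjusted p = 0.0672 by edgeR). Slc20a2, a phosphate importer, was lower in both (-1.34 and -0.77). The calcium-binding annexin Anxa5 was lower under starvation (-1.05).

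Receptors and secreted regulators of osteoblasts, 9 of 10 tested, had 1 higher and 3 lower members in serum (median -0.15) and 3 higher and 4 lower under starvation (median -0.23). Pth1r, the receptor of parathyroid hormone, was higher (1.03 and 2.56). The vitamin D receptor gene Vdr (-2.07 and -2.45), the Wnt co-receptor gene Lrp5 (-1.49 and -1.92) and Cd200 (-1.3 and -3.46) were lower. Lifr, a cytokine receptor, was at -0.15 in serum, which did not pass, and higher under starvation (1.99).

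**Figure D4:**
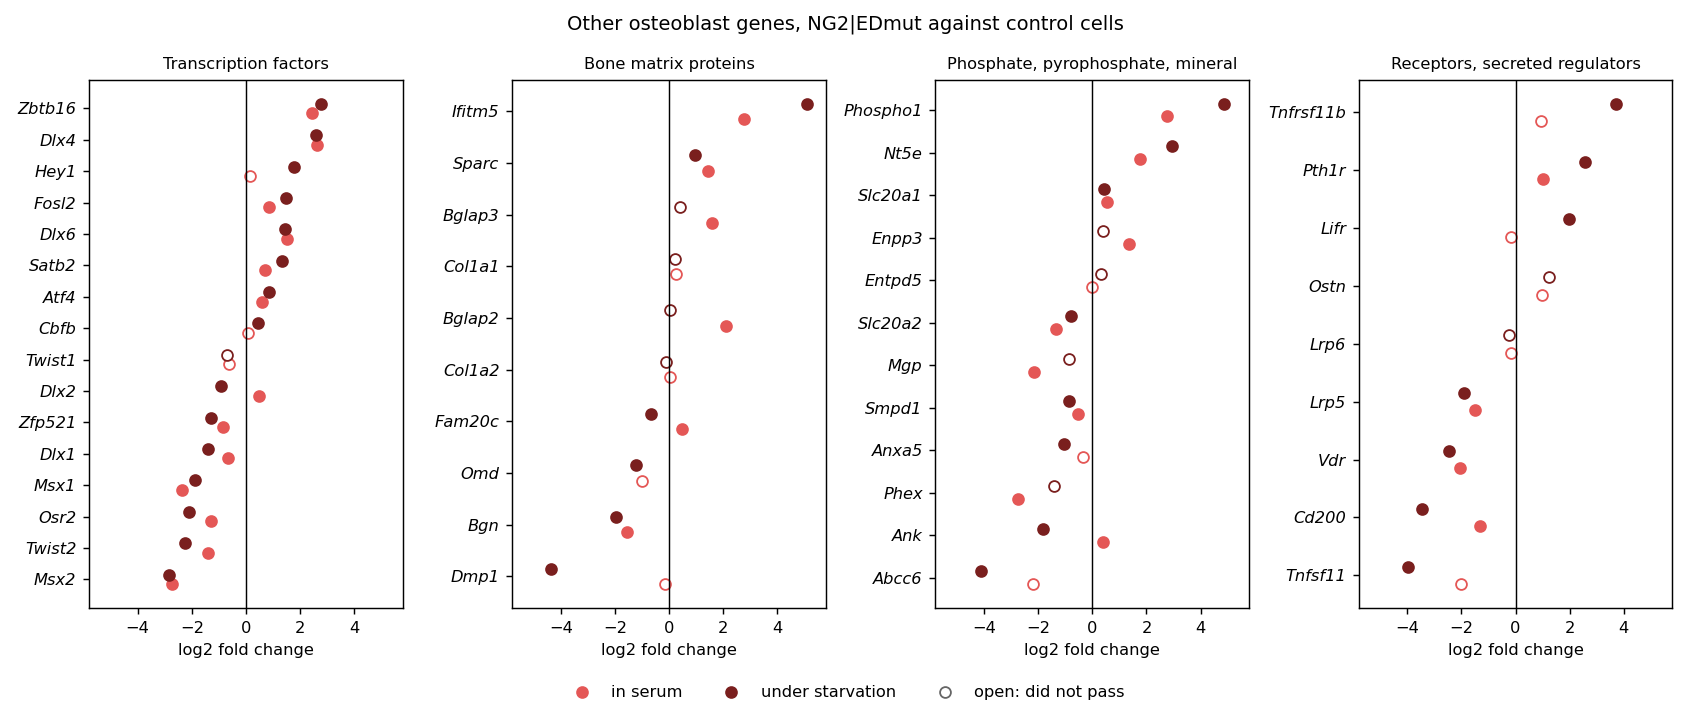
Log2 fold change of NG2|EDmut against control cells for the tested genes of the 4 further lists, in serum and under starvation, ordered by the value under starvation. Open circles did not pass the test. Each list holds genes on both sides of 0, from Dmp1 at -4.36 to Ifitm5 at 5.1 under starvation.

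In control cells, starvation raised 3 and lowered 3 of the 16 transcription factors, raised 2 and lowered 1 of the 10 matrix genes, raised 4 and lowered 3 of the 12 phosphate and mineral genes, and raised 1 and lowered 3 of the 9 receptor genes, where 9.45% of all tested genes were called higher and 10.8% lower. Phospho1 fell by 2.16 on the log2 scale and Ifitm5 by 2.61. Ank rose (1.39), as did Bgn (0.4). Among starved NG2|EDmut cells, 3 of the 47 tested genes of these lists were called, all lower (1.1% of all tested genes were called lower): Ank (-0.83, adjusted p = 0.00339 by edgeR), Fam20c (-0.74, adjusted p = 0.0148) and the homeodomain factor gene Dlx2.

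The genes whose profile over the 12 libraries lay nearest to each of the 10 were found by the root mean square difference of centred log2 CPM, as a description. Phospho1 was nearest to Alpl, at 0.12, where the profile of Alpl itself had a standard deviation of 2.26. Slc13a5 (0.38), Ifitm5 (0.4) and Dlx3 (0.42) were nearest to Ibsp, Slc8a3 (0.35) to Dlx3, Panx3 (0.42) to Smpd3, and Gm12439 (0.28) and Tcf7 (0.3) to Sp7. Cd200 was nearest to Spp1 (0.27) and among the 3 nearest to Enpp1 (0.38), after Amz1 (0.34) and Rhpn1 (0.35). Bglap2 (0.28) and Bglap3 (0.35) were nearest to Bglap, with which they share sequence. Runx2 and Dlx5 varied little, with standard deviations of 0.42 and 0.5, and Mfap1a (0.08) and Mapk12 (0.12) were nearest to them.

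Ordered by mean FPKM in NG2|EDmut cells in serum, the 10 genes ran from Ibsp (1180) through Bglap (352), Alpl (240), Sp7 (208), Smpd3 (129), Spp1 (42.3), Runx2 (38.5), Dlx3 (14.7) and Dlx5 (13.7) to Enpp1 (0.651). In starved control cells the order was led by Spp1 (235) and Bglap (90.7), and Dlx3 (0.423) was last, with Enpp1 at 5.8.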

How the data were processed

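Poly(A) RNA of the 12 libraries was sequenced on an Illumina NovaSeq after TruSeq Stranded preparation. The authors mapped the reads with HISAT2, assembled them with StringTie and merged the transcriptomes with gffcompare, and the submitters' processing notes also name FastQC and edgeR. Tool versions and the genome build are not stated in the sources read; 95.8% of gene starts match GENCODE M21 on GRCm38. The authors deposited estimated counts per gene, whole numbers made from StringTie coverage, so 1 unit is not 1 read and rounding changes nothing, and FPKM from the same coverage.

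Here edgeR 4.0.16 in R 4.3.3 was run on the estimated counts with filterByExpr, TMM and 1 mean per group over 12 libraries (degrees of freedom 8 residual, 3.91 prior), with an adjusted p threshold of 0.05. The 5 comparisons were the lines in serum and under starvation, starvation in each line, and their interaction. Alternatives were DESeq2 1.42.0, limma 3.58.1 on log2(FPKM + 1) and log2(FPKM + 0.1), RLE factors, other filters, a fold threshold (log2 of 1 or more), counts divided by 4, only the groups compared, a replicate block and leaving out each library. The fits were tested on simulated data. Named genes are the 10, up to 4 of each further list and line comparison with the smallest adjusted p, and Cspg4. Dmp1, Dlx2, Hey1, Tnfrsf11b, Col1a1 and Col1a2 were added after their values were seen. The members and lists were chosen with earlier results of these data known. Shared sequence was counted in 50-base windows of GENCODE transcripts, and promoter windows of 250 bases before the start came from RefSeq.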

Additional observations from a re-analysis of the deposited data

Results flagged for a closer look

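For 4 of the 10 genes and 11 of the 47 tested genes of the further lists, the response to starvation differed between the lines by edgeR's interaction test, which 4.39% of all tested genes passed. The values are log2 fold changes of the response in NG2|EDmut minus that in control cells. Smpd3 was called in only 4 of the 12 fits that left out 1 library. Such fits were not read for the genes of the further lists. Higher were Sp7 (1.53), Alpl (2.03), Smpd3 (3.1), the matrix vesicle phosphatase gene Phospho1 (2.12), Nt5e (1.18), Pth1r (1.54), Lifr (2.14), Hey1 (1.64), a target of Notch signalling, and Tnfrsf11b (2.8), which encodes osteoprotegerin. Lower were Enpp1 (-3.01), the pyrophosphate transporter gene Ank (-2.22), Cd200 (-2.16), Dlx2 (-1.42), Fam20c (-1.16) and Anxa5 (-0.72). Each of the 9 higher ones fell on starvation in control cells, by 1.08 (Nt5e) to 2.89 (Smpd3) on the log2 scale, and none of the 9 passed the test in NG2|EDmut cells. Each of the 6 lower ones rose in control cells, by 0.43 (Fam20c) to 2.36 (Enpp1), and Ank, Fam20c and Dlx2 fell in NG2|EDmut cells.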

How the results depend on the processing

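Of 1085 alternative values for single genes, 1034 kept their direction and side of the threshold, 22 lost and 20 gained the call, and 9 changed sign, none of them called. DESeq2 gave no adjusted p for Ibsp in any comparison, so its values for Ibsp are not among the 1085. The number of the 10 genes called ranged over the fits that left out 1 library from 9 to 10 in serum, 9 to 10 under starvation, 4 to 8 for starvation in control cells, 0 to 1 in NG2|EDmut cells (1 without control serum replicate 1) and 3 to 6 for the interaction. Under the other settings the ranges were 7 to 10, 7 to 10, 4 to 7, 0 to 5 and 3 to 6. The 5 in NG2|EDmut cells came from fitting only the groups compared, all lower, and the cause was not tested. Over all alternatives, the calls among all tested genes ranged from 2711 to 7657 in serum (5894 as reported), from 3432 to 8655 under starvation (7111), from 795 to 6390 for starvation in control cells (3779), from 136 to 2760 in NG2|EDmut cells (385) and from 339 to 3901 for the interaction (821). The highest of these came without control serum replicate 1, except for the 2760. The lowest for the lines came from the fold threshold and the 795 from only the groups compared.

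Values that changed sign lay near 0. Over the fits without 1 library, Bglap on starvation in control cells ranged from -0.12 to 1.37 (called at 1.37), with -0.06 without control serum replicate 3. Dlx3 on starvation in NG2|EDmut cells ranged from -0.03 to 0.23, and the interaction from -0.1 to 0.18 for both Runx2 and Dlx5 (Dlx5 also at -0.05, -0.03 and -0.02).

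Same-numbered libraries deviated from their group means with r of -0.13 to 0.09 across genes, so no strong effect shared by replicate number was seen. This cannot show that the libraries were made unpaired. With the replicate block, 10, 9, 5, 0 and 3 of the genes were called in the 5 comparisons. Over all tested genes, 5236, 6596, 3159, 241 and 443 were called. Smpd3 lost its interaction (3.25, adjusted p = 0.0521 by edgeR) and Ibsp its control response (-2.61). Depth was 60277881 estimated counts or more, so the spread between 3 libraries limits what can be called.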
